A study of Homo sapiens with 13 samples.

Results

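CpG-poor promoter peaks are stretches of open chromatin that overlap a transcription start site (TSS) of a protein-coding gene while holding few CG dinucleotides. They were taken from a set of 129347 ATAC-seq peaks of T98G cells, an established human glioblastoma line, in hg19 coordinates. A peak was a member when it overlapped a transcript TSS of a protein-coding gene in the GENCODE annotation (release 44, as mapped to GRCh37, which is the hg19 assembly). Its own sequence also had to have a CpG ratio under 0.4, which is the number of CG dinucleotides times the peak length over the product of its C and G counts. This gave 1565 peaks of 13469 protein-coding promoter peaks (11.6%), at 1462 genes. The promoter peaks with a ratio of at least 0.6, called CpG-rich here, numbered 10755, another 1140 lay between the limits, and 9 on the Y chromosome had no ratio because the reference is masked there. The rule used position and sequence, not the difference between the phases, although the peaks themselves were called on these libraries.

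Accessibility was compared between 3 libraries from G1 and 3 from M-phase. The G1 cells had spent 72 h without serum, whereas the M-phase cells had spent 48 h without serum, were released from starvation for 36 h with nocodazole, a microtubule drug that holds cells in mitosis, and were collected by shaking. Phase, serum and drug therefore changed together and cannot be told apart. The name of each M-phase column matches both a HiSeq and a NextSeq run, and the column is taken here to join them. The titles of the G1 libraries name no second run, so that platform and phase cannot be told apart either. The deposited values, called scaled counts below, count the reads of each peak after the authors had brought all libraries to the size of the smallest. Their sum per library ranged from 4191845 to 5092426 for G1 and from 5475345 to 6000423 for M-phase. Nothing in the labels says that the libraries came from separate cultures, so that the p-values measure the spread between these libraries only. In such bulk samples a peak open in fewer cells cannot be told apart from a peak that is less open in each cell. As a check of the line, 9 of 18 astroglial and glioma marker genes had a promoter peak that reached a mean of 10 scaled counts, including VIM, EGFR and CD44, while GFAP, S100B, SOX2 and NES had none. It was 4 of 18 for blood and immune markers, with PTPRC and CD3D without one, 4 of 9 for epithelial markers and 0 of 8 for endothelial markers.

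Most promoters of vertebrate genes lie in CpG islands, stretches that escape DNA methylation and are open in nearly every cell type. Promoters poor in CpG are the smaller class. They usually serve genes used in particular tissues or states, often contain a TATA box, and tend to rely on nearby sequence-specific factors. Many genes have both kinds, with an island promoter and one or more CpG-poor alternative starts that yield other transcript forms.

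The sequences of a few members show the difference in composition. Each is the stretch of 150 bases before the TSS on the gene's strand, 5′ to 3′, read from GRCh37, with every CG in capitals and all other bases in lower case. For RUNX1 and SELENOP the stretch was moved upstream of an annotated exon. RUNX1 (chr21:36421642-36421791, minus strand) and NEDD4L (chr18:55888617-55888766, plus strand) had the 2 largest rises in M-phase, and their CpG-rich promoters (chr21:36260988-36261137, minus strand, and chr18:55711308-55711457, plus strand) are set beside them. CD34 (chr1:208063838-208063987, minus strand), CHRNA1 (chr2:175652664-175652813, minus strand) and SELENOP (chr5:42811996-42812145, minus strand) were among the largest falls.
RUNX1, CpG-poor promoter: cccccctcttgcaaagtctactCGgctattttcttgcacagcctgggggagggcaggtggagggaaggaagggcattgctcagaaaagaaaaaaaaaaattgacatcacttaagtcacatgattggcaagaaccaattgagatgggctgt
RUNX1, CpG-rich promoter: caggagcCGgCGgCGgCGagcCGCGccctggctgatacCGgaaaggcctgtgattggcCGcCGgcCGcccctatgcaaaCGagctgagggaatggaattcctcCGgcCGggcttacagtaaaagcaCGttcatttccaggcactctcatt
NEDD4L, CpG-poor promoter: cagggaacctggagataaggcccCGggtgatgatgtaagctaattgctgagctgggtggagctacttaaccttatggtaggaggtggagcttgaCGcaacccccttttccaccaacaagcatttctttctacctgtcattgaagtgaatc
NEDD4L, CpG-rich promoter: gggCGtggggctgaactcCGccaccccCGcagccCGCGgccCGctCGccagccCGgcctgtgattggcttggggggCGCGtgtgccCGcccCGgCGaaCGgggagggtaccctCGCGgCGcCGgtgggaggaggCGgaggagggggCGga
CD34, CpG-poor promoter: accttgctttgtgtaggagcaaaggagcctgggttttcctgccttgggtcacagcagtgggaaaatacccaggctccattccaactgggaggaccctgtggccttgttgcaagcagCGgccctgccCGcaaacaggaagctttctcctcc
CHRNA1, CpG-poor promoter: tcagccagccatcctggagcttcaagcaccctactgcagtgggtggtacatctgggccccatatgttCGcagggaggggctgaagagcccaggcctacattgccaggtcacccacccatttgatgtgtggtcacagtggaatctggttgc
SELENOP, CpG-poor promoter: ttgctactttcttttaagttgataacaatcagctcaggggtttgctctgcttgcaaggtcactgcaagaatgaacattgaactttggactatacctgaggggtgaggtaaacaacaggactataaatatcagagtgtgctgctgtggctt
The CpG-poor stretches of RUNX1, NEDD4L, CD34, CHRNA1 and SELENOP held 1, 2, 2, 1 and 0 CG dinucleotides. The CpG-rich stretches of RUNX1 and NEDD4L held 14 and 20.

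CpG-poor promoter peaks were smaller and lower than CpG-rich ones and more often lay at alternative starts. Their median width was 570 bp (quartiles 304 and 971 bp) against 1289 bp for CpG-rich promoter peaks, and their median GC content was 52.2% against 64.8%. The median member had a CpG ratio of 0.242 and 8 CG dinucleotides, compared with 0.785 and 100 in the CpG-rich class, and 49 members had no CG at all. A canonical transcript, the single main transcript that Ensembl tags per gene, started in 488 members (31.2%) but in 91.3% of the CpG-rich peaks. Another 579 members covered the start of a different coding transcript, and 498 covered only starts of non-coding transcripts of coding genes. A ratio was also taken for the 300 bases from 250 before to 50 after the TSS, a window that can reach beyond the peak. There 1362 members had a ratio under 0.4 and 25 had a ratio of at least 0.6.

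Short sequence motifs also differed between the classes, searched as exact letters on both strands of the same 300 bases. An AP-1 site, TGANTCA, was present in 26.4% of the members, 3.03% of CpG-rich promoter peaks and 6.18% of all promoter peaks. AP-1 is the JUN and FOS family of stimulus-responsive transcription factors. The letters TATAAA were found in 14.4% of the members against 3.90% of CpG-rich and 5.27% of all promoter peaks. Counting only TATAAA on the gene's strand between 40 and 21 bases before the TSS, where a TATA box is usually placed, the shares were 2.94%, 1.39% and 1.58%. The TEAD letters GGAATG stood in 20.1% of the members, 9.12% of CpG-rich and 10.6% of all promoter peaks, and the RUNX letters TGTGGTT in 8.18%, 2.19% and 3.05%. The forkhead letters TGTTTAC were rare, at 4.09%, 1.86% and 2.21%. CCAAT was about equally common, in 31.3%, 34.6% and 34.6%. The SP-type GC box GGGCGG (18.3%, 80.2% and 71.1%), the ETS core CCGGAA (6.45%, 30.1% and 26.7%), the E box CACGTG (5.24%, 10.1% and 9.39%) and the cAMP response element TGACGTCA (0.895%, 3.58% and 3.13%) contain CG themselves, so that the rule itself lowers their share among the members. None of these motifs contains another, but CCGGAA and GGAATG can share letters where they meet. A match describes the letters in this window and is no measurement of binding.

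The median level of the members was slightly lower in M-phase, while that of CpG-rich promoters was higher. The median scaled count over the 1565 members was 34.8, 37.5 and 43.0 in G1 replicates 1, 2 and 3 and 33.0, 33.0 and 33.2 in M-phase replicates 1, 2 and 3. The M-phase libraries lay just below the G1 libraries and were nearly equal to one another. Over CpG-rich promoter peaks the medians were 148, 136 and 173 in G1 and 207, 225 and 232 in M-phase, so that here the M-phase libraries lay above the G1 libraries. The members held 2.18% ± 0.0481 of all scaled counts in peaks in G1 and 1.85% ± 0.0123 in M-phase (SD, n = 3 each). The share of CpG-rich promoter peaks was 43.2% ± 1.81 and 53.8% ± 0.957, and that of CpG-poor peaks away from any TSS was 38.9% ± 1.28 and 28.6% ± 0.934. In all 3 classes the phases did not overlap in this share.

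**Figure D1:**
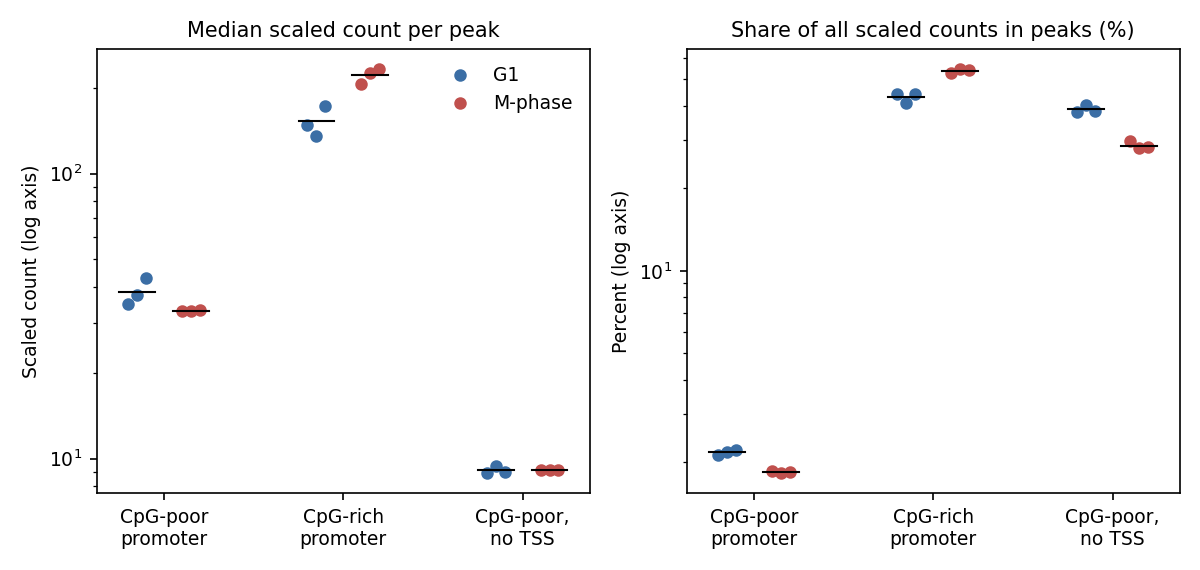
Median scaled count per peak (left) and share of all scaled counts in peaks in percent (right), both on log axes, for CpG-poor promoter peaks, CpG-rich promoter peaks and CpG-poor peaks away from any TSS. Points are the 3 G1 (blue) and 3 M-phase (red) libraries and lines their means; the share of CpG-poor promoter peaks was 2.18% in G1 and 1.85% in M-phase, while that of CpG-rich promoter peaks was 43.2% and 53.8%.

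The gap between both kinds of promoter was measured in each library as the median log2(scaled count + 8) of the members minus that of CpG-rich promoter peaks. It was -1.87, -1.66 and -1.83 in the G1 libraries and -2.39, -2.51 and -2.54 in the M-phase libraries. Every M-phase library thus showed a wider gap than every G1 library, with a mean of -1.79 ± 0.11 in G1 and -2.48 ± 0.08 in M-phase and a difference of -0.70. A two-sided exact permutation test over 3 against 3 libraries gave p = 0.1, which is the smallest p this design allows. A trended loess normalization, which sets the average change to 0 at every peak height, left a difference of -0.15.

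Changes of single peaks were fitted with limma on log2(scaled count + 8) across all 73121 peaks with enough reads, and a change is given below as the log2 difference of M-phase minus G1 on that scale, which understates the change of low peaks. Of the 1565 members, 1382 were tested, 195 rose and 237 fell at an adjusted p under 0.05 (Benjamini-Hochberg over all tested peaks). That is 14.1% and 17.1% of the tested members, where 14.3% of all tested peaks rose and 13.1% fell, so that the share that rose was near the background. Among all protein-coding promoter peaks 47.1% rose and 5.29% fell, among CpG-rich ones 52.8% rose and 3.73% fell, and among CpG-poor peaks away from any TSS 5.99% rose and 16% fell. The median change of all 1565 members was -0.05 (quartiles -0.41 and 0.33), against 0.52 (0.10 and 0.88) for CpG-rich promoter peaks and 0.07 for all peaks. Without regard to the calls, every M-phase library was above every G1 library at 269 of the tested members (19.5%, and 19.7% of all tested peaks) and below at 304 (22.0%, and 18.6% of all tested peaks). The mean levels of 68.9% of the members differed by less than 1.5-fold between the phases on this scale. This share was 78.6% for all peaks, 51.5% for CpG-rich promoter peaks and 81.0% for CpG-poor peaks away from any TSS. It depended on height, with 84.4% of the members under 10 scaled counts and 46.7% of those with at least 200. When each library was scaled to the same total in peaks, 105 members rose and 466 fell, and 18.4% rather than 45.1% of the called members were higher in M-phase. The split was 161 and 319 (33.5% higher) with TMM scaling and 139 and 295 (32.0% higher) with the loess normalization. Equal totals also moved the median change over all peaks from 0.07 to -0.12.

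The members that fell were narrower than those that rose. The 237 members that fell had a median scaled count of 63.7 in G1 and 24.7 in M-phase, a median width of 595 bp and changes from -2.29 to -0.46. At least a 2-fold change was seen in 114 of them. G1 replicate 3 was the highest library at 176 of the 237, and without it 191 members fell and 224 rose. The 195 members that rose had medians of 73.5 in G1 and 144 in M-phase, a median width of 1115 bp and changes from 0.44 to 2.54. M-phase replicate 3 was the highest library at 104 of these. Canonical starts were about equally frequent, in 76 of the members that fell and 67 of those that rose.

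The median change was higher at higher CpG ratios up to a ratio of 0.9, with small steps among the members, while the balance of their calls turned from falls to rises. The median change was -0.10 for the 154 promoter peaks with a ratio under 0.1, -0.06 from 0.1 to 0.2, -0.04 from 0.2 to 0.3 and -0.03 from 0.3 to 0.4. It was 0.12 from 0.4 to 0.5, 0.31 from 0.5 to 0.6, 0.47 from 0.6 to 0.7 and 0.56 from 0.8 to 0.9. Among members, 10 rose and 28 fell with a ratio under 0.1, 38 and 77 from 0.1 to 0.2, 74 and 81 from 0.2 to 0.3, and 73 and 51 from 0.3 to 0.4. Just inside the limit, at 0.35 to 0.4, the 201 members had a median change of -0.04 with 32 rises and 18 falls. Just outside it, at 0.4 to 0.45, the 183 peaks had a median of 0.13 with 39 rises and 6 falls.

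**Figure D2:**
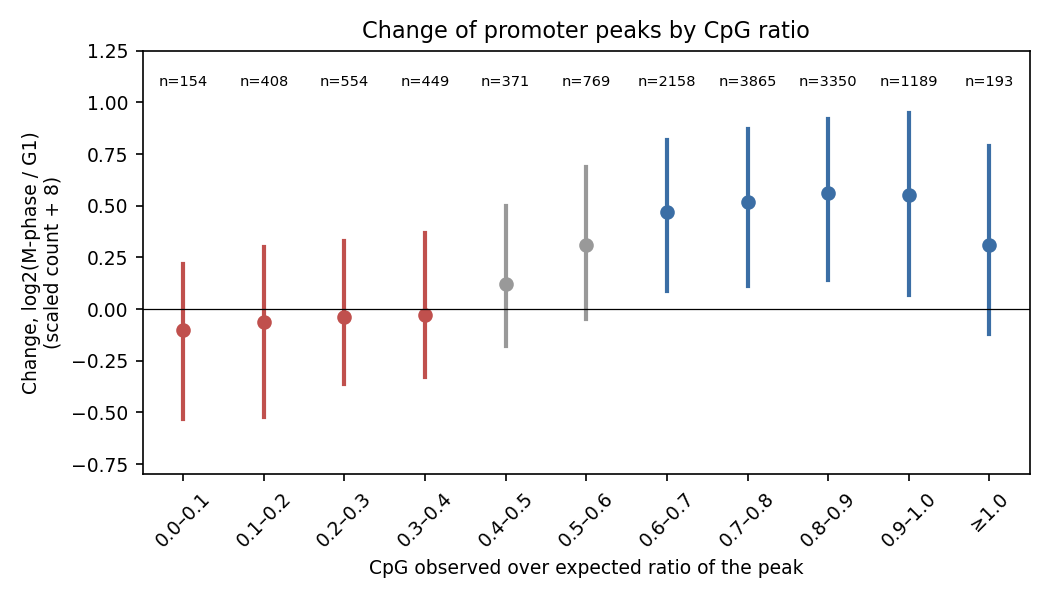
Change of protein-coding promoter peaks, as log2 of M-phase over G1 on the log2(scaled count + 8) scale, by CpG ratio of the peak. Points are medians and lines run from the lower to the upper quartile over peaks, with members in red, peaks between the limits in grey and CpG-rich peaks in blue; the medians run from -0.10 in the lowest bin to 0.56 at a ratio of 0.8 to 0.9, and the bin of 1.0 and more lies at 0.31.

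Peak height moved with both the CpG ratio and the change. The median member had a mean scaled count of 37.6 over the 6 libraries, against 190 for CpG-rich promoter peaks, and in every class high peaks rose more often than low ones. Of the 438 members with a mean scaled count of 20 to 50, 31 rose and 84 fell. Of the 92 members with at least 200, 52 rose and 8 fell, so that the direction among the called members turned with height. From a scaled count of 20 upward the members had lower median changes than CpG-rich promoter peaks in the same range, with -0.16 against -0.05 at 20 to 50, -0.08 against 0.17 at 50 to 100, 0.06 against 0.48 at 100 to 200 and 0.53 against 0.76 at 200 and more. Below 20 this was not so, with 0.06 against -0.01 for the 212 members under 10 and -0.10 against -0.11 for the 274 members at 10 to 20. CpG-poor peaks away from any TSS gave -0.13, -0.14, 0.09 and 0.45 in the 4 ranges from 20 upward. With the loess normalization the members' medians were -0.06, -0.17, -0.24 and -0.15 and those of CpG-rich promoter peaks 0.06, 0.08, 0.13 and 0.06. Their order within each of these 4 ranges was kept, while the rise of the highest members as a group was not. Width went with height: of the 125 members of at least 1600 bp 56 rose and 5 fell, and of the 330 members of 200 to 400 bp 15 rose and 48 fell.

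**Figure D3:**
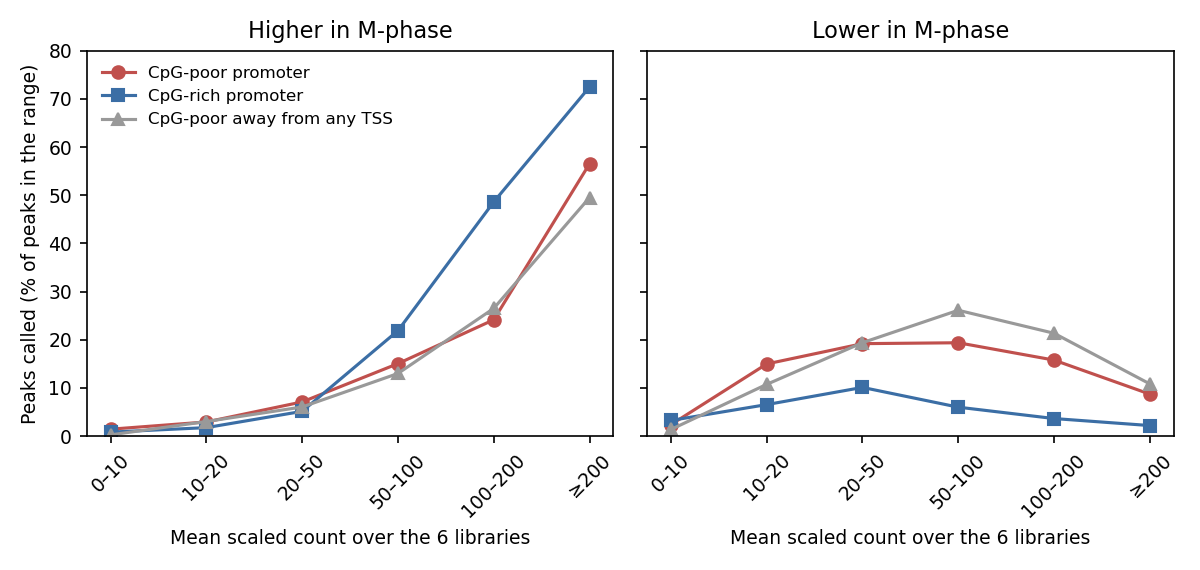
Percent of peaks called higher (left) and lower (right) in M-phase by limma at an adjusted p under 0.05, in ranges of the mean scaled count over the 6 libraries. CpG-poor promoter peaks are red circles, CpG-rich promoter peaks blue squares and CpG-poor peaks away from any TSS grey triangles; at 200 and more, 56.5%, 72.5% and 49.5% were higher and 8.70%, 2.17% and 10.8% were lower.

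Members with an AP-1 site rose more often than the others, and they were also higher. Of the 413 members with TGANTCA in the 300 bases at the TSS, 80 rose and 56 fell, with a median change of 0.06 and a median mean scaled count of 52.1. Of the 1152 members without it, 115 rose and 181 fell, with a median change of -0.07 and a median mean scaled count of 31.8. In ranges of equal height, 11.5% with and 5.54% without the site rose at scaled counts of 20 to 50, 18.8% and 13.2% at 50 to 100, and 41.2% and 30.6% at 100 and more. The shares that fell were 16.8% and 20.0%, 16.1% and 20.9%, and 10.8% and 15%. For the other motifs, 17.1% of the 82 members with an E box rose and 11% fell, and of the 14 with a cAMP response element 5 were called, all higher. Of the 490 with CCAAT 14.7% rose and 14.5% fell, and both shares were 15% for the GC box and 14.9% for the ETS core. Falls were more frequent than rises with TEAD (12.7% rose, 18.4% fell), RUNX (11.7% and 18.8%), forkhead (14.1% and 17.2%) and TATAAA letters (10.6% and 15.5%). The background over all members was 12.5% and 15.1%. These are descriptions of peaks that share the same 6 libraries and were not tested.

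The largest rise was at RUNX1, which encodes a transcription factor of blood stem cells and has a distal and a proximal promoter. The CpG-poor peak (chr21:36419959-36422013) covers the distal, canonical TSS. Its scaled counts were 94.4, 84.4 and 92.0 in G1 replicates 1, 2 and 3 and 524, 571.1 and 598.1 in M-phase replicates 1, 2 and 3. All M-phase libraries were far above all G1 libraries, and the change was 2.54 ± 0.18 (SE here and below, n = 3 per phase, adjusted p = 1.02e-20, limma with Benjamini-Hochberg adjustment here and below). The CpG-rich promoter of RUNX1 (chr21:36260290-36262661) also rose, from 328.1, 305.5 and 355 to 1053, 1118.3 and 1207.3, with a change of 1.75 ± 0.15 (adjusted p = 4.79e-16). The loess normalization left changes of 1.99 and 0.78 for the CpG-poor and the CpG-rich peak.

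NEDD4L, a ubiquitin ligase that controls ion channels, rose at an internal coding start (chr18:55888460-55888929). Its peak had scaled counts of 9.9, 14.8 and 19.0 in G1 and 70.9, 79.1 and 88.5 in M-phase, without overlap, and a change of 1.97 ± 0.26 (adjusted p = 1.99e-09). The CpG-rich promoter of NEDD4L changed by 0.87 ± 0.18 (adjusted p = 6.91e-05), or by 0.24 with the loess normalization, which ended the call. NEDD4L had more CpG-poor promoter peaks than this member, and the mean change over all of them was only 0.668. PKM encodes the pyruvate kinase of glycolysis. A CpG-poor peak of this gene at another coding start (chr15:72520651-72521541) went from 59.7, 60.9 and 100 to 266.5, 295.4 and 332, each M-phase library above each G1 library, with a change of 1.94 ± 0.20 (adjusted p = 4.51e-13). The CpG-rich promoter of PKM changed by 1.39 ± 0.15 (adjusted p = 5e-12) and by 0.34 with the loess normalization. Over all CpG-poor peaks of PKM the mean change was 0.78, below that of the CpG-rich promoter.

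PLEC, which encodes the cytoskeletal linker plectin, had the highest CpG-poor promoter peak of all, on chromosome 8 at its canonical TSS. The scaled counts were 465.3, 439.1 and 499 in G1 and 1471.5, 1776.7 and 1888.6 in M-phase. The phases were well apart, with a change of 1.85 ± 0.15 (adjusted p = 4.85e-18), which the loess normalization lowered to 0.72. MYPN, a protein of the muscle sarcomere, rose from 18.9, 25.8 and 24.0 to 108.3, 92.3 and 71.2 at the start of a non-coding transcript (chr10:69895701-69896459). No library overlapped between the phases, and the change was 1.66 ± 0.25 (adjusted p = 5.89e-08). CD44, the receptor for the matrix polymer hyaluronan, rose at an internal non-coding start (chr11:35236094-35236830) from 17.9, 29.7 and 23.0 to 81.2, 76.2 and 101, again without overlap, by 1.59 ± 0.25 (adjusted p = 2.18e-07).

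GNAL encodes a G protein subunit of olfactory and striatal neurons. At a coding start (chr18:11857279-11857864) its scaled counts were 45.7, 35.9 and 58.0 in G1 and 151.6, 139.7 and 161.7 in M-phase, with no overlap and a change of 1.56 ± 0.22 (adjusted p = 1.33e-08). The CpG-rich promoter of GNAL had a change of 0.17 ± 0.23, which did not pass the test (adjusted p = 0.658). IL7R, a receptor chain for a lymphocyte growth factor, rose at its canonical start (chr5:35856762-35858247) from 33.8, 41.4 and 69.0 to 138, 166.9 and 136.2. The phases did not overlap, and the change was 1.51 ± 0.22 (adjusted p = 6.09e-08). These 8 rises passed the test under all scalings tried and without any single library.

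The largest fall was at CD34, a surface sialomucin of blood progenitors and endothelium. The peak at a coding start (chr1:208063588-208064355) had scaled counts of 131.2, 157.8 and 208 in G1 and 29.7, 47.4 and 12.5 in M-phase. Every M-phase library was below every G1 library, M-phase replicate 3 was the lowest, and the change was -2.29 ± 0.24 (adjusted p = 1.43e-12). None of the 8 endothelial marker genes had a promoter peak reaching a mean of 10 scaled counts, and their promoter peaks together held 5.5 to 9.9 scaled counts in a G1 library and 1.6 to 14.9 in an M-phase library. OXR1, which protects cells against oxidative damage, fell at an internal coding start on chromosome 8 from 105.4, 124.2 and 160 to 31.3, 21.4 and 24.1, without overlap, a change of -2.03 ± 0.24 (adjusted p = 3.11e-11). Its CpG-rich canonical promoter had a change of -0.27 ± 0.17, which did not pass the test (adjusted p = 0.251) but did with TMM scaling (-0.41), equal totals (-0.62) and the loess normalization (-1.15). The mean change over all CpG-poor peaks of OXR1 was -1.375, a smaller fall than at the named peak.

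PLEKHS1, a pleckstrin homology domain protein, fell at its canonical start (chr10:115510940-115511510) from 58.7, 73.4 and 62.0 to 8.7, 15.7 and 7.7. The groups were far apart, with a change of -1.98 ± 0.27 (adjusted p = 7.2e-09). CHRNA1 encodes a subunit of the acetylcholine receptor of muscle. Its peak (chr2:175652351-175653136) had 89.5, 98.4 and 138 scaled counts in G1 and 27.2, 14.4 and 26.0 in M-phase, with no overlap and a change of -1.94 ± 0.25 (adjusted p = 5.91e-10). SELENOP, a plasma protein that carries selenium, went from 38.8, 32.8 and 45 to 3.7, 9.9 and 1.9 at its canonical start (chr5:42811931-42812309), which left few reads in M-phase. The phases did not overlap, and the change was -1.87 ± 0.29 (adjusted p = 2.07e-07).

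ALPK1, a kinase that senses a bacterial sugar, fell at its canonical start (chr4:113218095-113218862) from 110.4, 71.9 and 146 to 17.3, 37.5 and 18.3. All M-phase libraries were lower, and the change was -1.86 ± 0.25 (adjusted p = 4.56e-09). At the gene named AL590560.1 (chr1:159880076-159880662) the scaled counts were 186.9, 194.5 and 303 in G1 and 50.7, 65.9 and 60.6 in M-phase, without overlap, with a change of -1.79 ± 0.21 (adjusted p = 3.87e-11). SMARCA2 encodes an ATPase of the SWI/SNF chromatin remodeler. Its CpG-poor peak at an upstream coding start (chr9:1978999-1980510) fell from 124.3, 157.8 and 242 to 46.1, 41.6 and 43.8, again without overlap, a change of -1.77 ± 0.22 (adjusted p = 4.21e-10). The CpG-rich canonical promoter of SMARCA2 overlapped between the phases, at 570.7, 512.5 and 790 in G1 and 744.8, 892.9 and 837.3 in M-phase, with a change of 0.42 ± 0.16 (adjusted p = 0.0346) that TMM scaling and equal totals left uncalled and the loess normalization turned to -0.61. That call was also lost without G1 replicate 1 or 2 or M-phase replicate 2 or 3, with an adjusted p of up to 0.209. The 8 falls of the CpG-poor peaks passed the test under all scalings tried and without any single library.

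**Figure D4:**
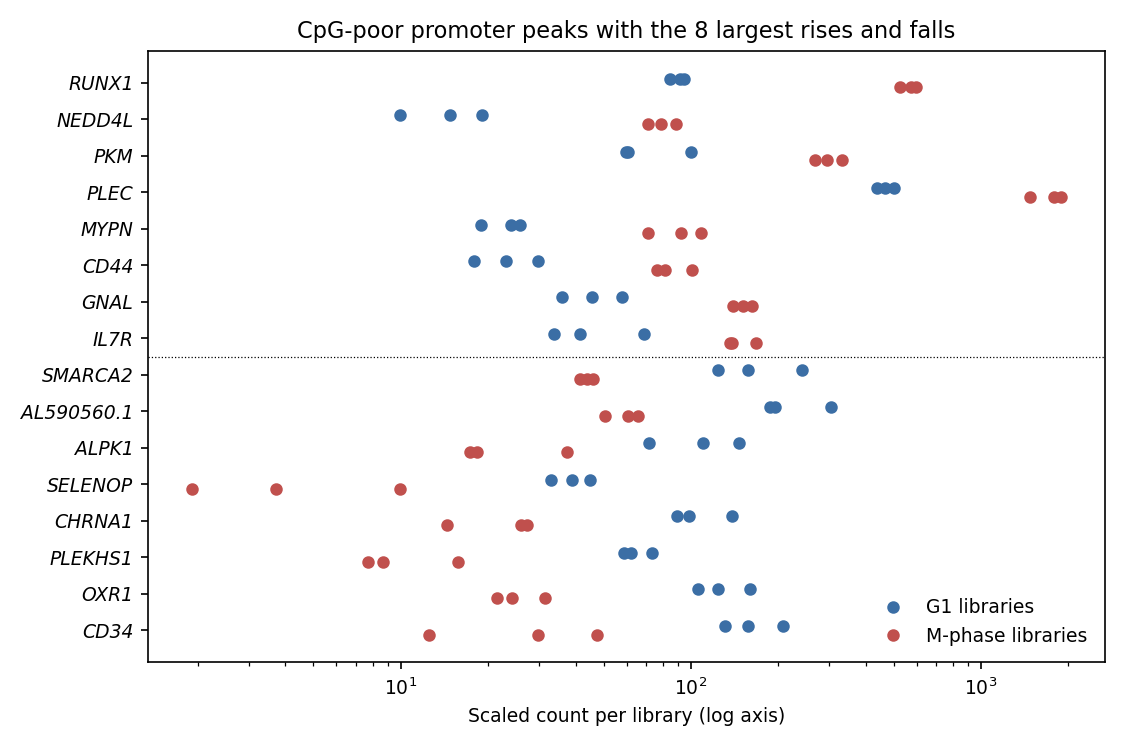
Scaled count per library, on a log axis, at the 8 CpG-poor promoter peaks with the largest rises (above the dotted line) and the 8 with the largest falls, with 3 G1 libraries in blue and 3 M-phase libraries in red. The peaks were picked to have no overlap between the libraries of the phases. At RUNX1 the libraries ran from 84.4 to 94.4 in G1 and from 524 to 598.1 in M-phase.

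The other members with the highest scaled counts belonged to LGALS1, CXXC5, BTBD19, SYNPO and SPACA6, and all 5 were called higher. LGALS1 encodes galectin-1, a sugar-binding protein that glioblastoma cells make in quantity. Its canonical promoter had 429.5, 337.5 and 449 scaled counts in G1 and 959, 1141.3 and 1158.7 in M-phase, without overlap, with a change of 1.41 ± 0.15 (adjusted p = 4.23e-12), or 0.41 with the loess normalization. SYNPO, the actin-associated protein synaptopodin, went from 326.1, 417.2 and 404 to 853.2, 877.2 and 1004.7, also without overlap, by 1.24 ± 0.16 (adjusted p = 5.17e-10), or 0.29 with the loess normalization. The rises of CXXC5, a zinc finger protein that binds CpG (0.85 ± 0.15, adjusted p = 5.81e-06), BTBD19 (0.58 ± 0.15, adjusted p = 0.00237) and SPACA6, a sperm protein needed for fusion with the egg (0.50 ± 0.16, adjusted p = 0.0105), depended on the scaling. The loess normalization turned them to -0.16, -0.42 and -0.44. It called BTBD19 and SPACA6 lower (adjusted p = 0.000275 and 0.00024) but not CXXC5 (adjusted p = 0.263). With equal totals only CXXC5 remained called. SPACA6 also lost its call without G1 replicate 1 (0.48, adjusted p = 0.0572), M-phase replicate 2 (0.44, adjusted p = 0.12) or M-phase replicate 3 (0.46, adjusted p = 0.0826).

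At 696 genes both a CpG-poor and a CpG-rich promoter peak were present, so that both kinds could be compared within the same gene. The median over genes of the difference in log2(scaled count + 8), CpG-poor minus CpG-rich, was -1.80, -1.79 and -1.75 in G1 and -2.33, -2.40 and -2.38 in M-phase. The median CpG-poor promoter was thus the lower one in all libraries, and the gap was wider in each M-phase library than in each G1 library, at -1.78 ± 0.03 and -2.37 ± 0.04 (SD, n = 3 each, difference -0.59). The exact permutation p over libraries was again the smallest possible, 0.1, and the loess normalization left a difference of -0.11. The change at the CpG-poor promoter was below that at the CpG-rich promoter in 536 genes (77.0%) and above it in 160. The median change was -0.03 at the CpG-poor and 0.50 at the CpG-rich promoters. Taken gene by gene, the median difference between both changes was -0.47, smaller in size than the shift of the library medians. Of all 696 genes, 53.9% had a CpG-rich promoter that rose and 4.60% one that fell. Of 113 genes with a CpG-poor promoter that fell, 40 (35.4%) had a CpG-rich promoter that rose and 16 (14.2%) one that fell. Of 112 genes with a CpG-poor promoter that rose, 82 (73.2%) also had a CpG-rich promoter that rose. These shares are descriptions and were not tested. The genes share the same 6 libraries and are not replicates.

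**Figure D5:**
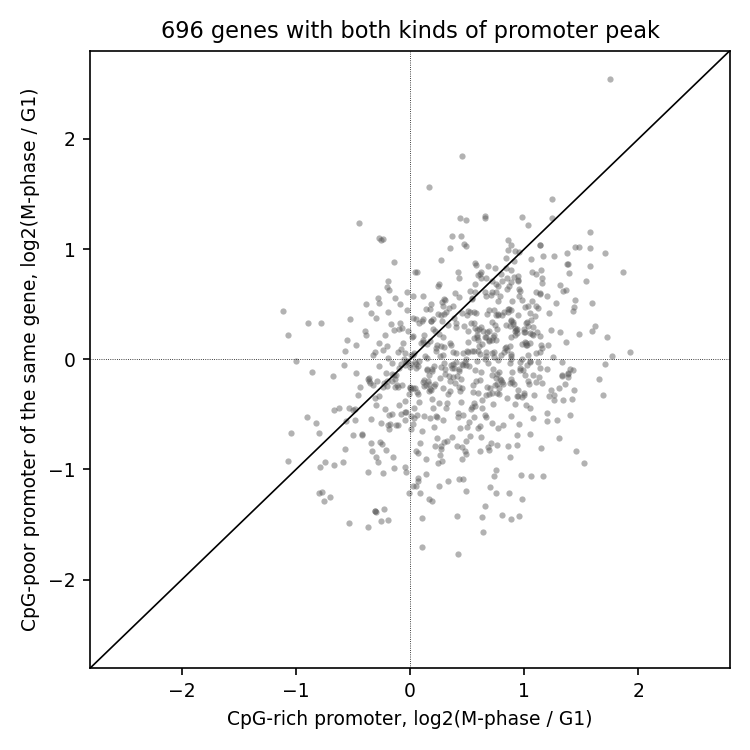
Change at the CpG-poor promoter peak against the change at the CpG-rich promoter peak of the same gene, both as log2 of M-phase over G1 on the log2(scaled count + 8) scale, with 1 point for each of 696 genes (means where a gene has several peaks of a kind). The solid line marks equal change; 536 genes lie below it and 160 above, and the uppermost point is RUNX1.

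Genes of known function among the members were described from lists of gene families. As a background for the counts, 14.1% of all tested members rose and 17.1% fell. The lists are short, and their counts were not tested against these shares. Matrix proteins had 16 CpG-poor promoter peaks, of which 14 were tested, 1 rose and 4 fell, with a median change of -0.17. TGFBI, an adhesive matrix protein induced by TGF-beta, fell from 291.3, 273.4 and 459 to 137.2, 136 and 98.6 at a coding start, without overlap, a change of -1.38 ± 0.19 (adjusted p = 1.08e-08). Its CpG-rich canonical promoter had a change of -0.34 ± 0.20, which did not pass the test (adjusted p = 0.222) but did with TMM scaling (-0.47), equal totals (-0.67) and the loess normalization (-0.66). Over all CpG-poor peaks of TGFBI the mean change was -0.76, a smaller fall than at the named peak. COL6A3, a chain of type VI collagen, rose from 220.7, 230.5 and 253 to 342.7, 396 and 398.9, without overlap, by 0.67 ± 0.17 (adjusted p = 0.00149), but its change was 0.01 with the loess normalization. SPARC, a collagen-binding glycoprotein, had 252.5, 261.7 and 411 in G1 and 145.8, 191.6 and 260.3 in M-phase. Its groups overlapped slightly, and its fall of -0.61 ± 0.19 (adjusted p = 0.00963) lost the call without G1 replicate 3 (-0.39, adjusted p = 0.084) or without M-phase replicate 1 (-0.42, adjusted p = 0.168).

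The S100 calcium-binding proteins lie in a cluster on chromosome 1 and had 8 CpG-poor promoter peaks, all tested, of which 1 rose and 2 fell (median change -0.14). S100A11 had 483.2, 503.9 and 834 scaled counts in G1 and 390.5, 360.9 and 436 in M-phase. G1 replicate 3 stood above the rest, and the fall of -0.57 ± 0.17 (adjusted p = 0.00662) did not pass without that library (-0.32, adjusted p = 0.0939) or without M-phase replicate 2 (-0.50, adjusted p = 0.0702). The canonical promoter of S100A2 rose from 320.1, 274.2 and 425 to 457.3, 508 and 571.2, without overlap, by 0.60 ± 0.17 (adjusted p = 0.00395). That call was lost without M-phase replicate 3 (0.52, adjusted p = 0.0629) and with equal totals, and the loess normalization turned the change to -0.20. S100A6 (0.34 ± 0.17, adjusted p = 0.144) and S100A13 (-0.03 ± 0.19, adjusted p = 0.934) overlapped between the phases and did not pass the test. The loess normalization turned S100A6 to -0.36 and called both lower, with S100A13 at -0.52.

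Among contractile and actin-associated proteins 3 of 5 members rose in the limma fit and 0 fell, also at an unadjusted p under 0.05. CALD1, the actin regulator caldesmon, rose at its canonical start from 143.2, 166.4 and 238 to 313.1, 330.5 and 344.5, without overlap, by 0.85 ± 0.18 (adjusted p = 0.000134), or 0.28 with the loess normalization, which ended the call. A second, internal CALD1 peak had a change of -0.33 ± 0.24 and did not pass the test (adjusted p = 0.342) but did with equal totals (-0.63). TNNT1, a troponin of slow muscle, had 180.9, 175 and 155 in G1 and 153.7, 122 and 135.2 in M-phase, without overlap. Its change of -0.30 ± 0.19 did not pass the test (adjusted p = 0.267), but it was called lower with equal totals (-0.64) and the loess normalization (-0.68). A MYH9 peak at an internal non-coding start of the nonmuscle myosin gene was called at 0.60 ± 0.22 (adjusted p = 0.0341), but its G1 values of 45.7, 113.3 and 113 differed widely. Without G1 replicate 1 its change was 0.21 (adjusted p = 0.565), and without M-phase replicates 1, 2 or 3 it was 0.66, 0.58 or 0.56 and not called either. The call was also lost with TMM scaling (0.47), equal totals (0.27), the loess normalization (0.38) and a pseudocount of 1 (0.65). The remaining rise of the list was at another MYH9 member, which was not among the named peaks. The mean change over the CpG-poor peaks of MYH9 was 1.006.

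For integrins, cadherins and other adhesion receptors 3 of 6 members rose and 1 fell. ITGB5, the beta-5 integrin chain, had members that differed in direction. The peak at an internal non-coding start (chr3:124499232-124500219) went from 105.4, 102.3 and 107 to 61.8, 39.1 and 56.3, without overlap, a change of -0.92 ± 0.22 (adjusted p = 0.000776). The peak nearer the gene's 5′ end (chr3:124597462-124598318) went from 38.8, 40.6 and 73.0 to 75.4, 91.5 and 72.7, which overlapped. That rise of 0.62 ± 0.24 (adjusted p = 0.0392) was lost under the omission of G1 replicate 1 or 2 or of any M-phase library, with changes of 0.48 to 0.68, and with TMM scaling (0.50), equal totals (0.31) and no filter on low values (0.62). VCAM1, a cytokine-induced adhesion molecule, rose from 42.7, 28.1 and 47.0 to 49.8, 90.2 and 98.2 by 0.86 ± 0.25 (adjusted p = 0.00448), without overlap, and was not called without M-phase replicate 2 (0.75, adjusted p = 0.0509) or 3 (0.70, adjusted p = 0.065) or with equal totals (0.55).

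Interferon response and antigen presentation genes had 21 tested members, of which 1 rose (4.76%) and 4 fell (19.0%, near the 17.1% of all tested members). Their median change was -0.21. The highest of them, ISG20, an exonuclease against viral RNA, had 220.7, 241.4 and 338 scaled counts in G1 and 178.4, 208.9 and 281 in M-phase, which overlapped, with a change of -0.25 ± 0.19 (adjusted p = 0.344). Equal totals gave -0.59 and the loess normalization -0.82, each with a call. Of 6 cytokine and chemokine members 0 rose and 1 fell in the limma fit, with 0 and 2 at an unadjusted p under 0.05, and the chemokine CCL2 had 109.4, 91.4 and 104 in G1 and 67.6, 99.7 and 126.6 in M-phase, which did not pass the test (-0.08 ± 0.22, adjusted p = 0.822). Of the 6 members of the protease and inhibitor list 1 rose, at PLAU, the urokinase plasminogen activator. At a coding start other than the canonical one, PLAU went from 145.1, 76.6 and 81.0 to 236, 240.2 and 263.7, without overlap, by 1.28 ± 0.20 (adjusted p = 2.73e-07). The canonical start of PLAU lay in a low CpG-rich peak with a mean scaled count of 22.9. The change there was 0.44 ± 0.28 and did not pass the test (adjusted p = 0.262).

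In the keratin list, 6 members were tested by limma and 0 were called in either direction, also at an unadjusted p under 0.05. KRT80 and KRT7, which build the filaments of epithelial cells, had changes of 0.15 ± 0.21 and -0.20 ± 0.21 with overlapping libraries, although KRT7 was called lower with equal totals (-0.53). The 4 members of annexin and caveolin genes also gave 0 calls, adjusted or unadjusted. Among detoxifying enzymes, AKR1C1, AKR1C2 and AKR1C3 rose by 0.76 ± 0.24, 0.88 ± 0.26 and 0.89 ± 0.24 (adjusted p = 0.0114, 0.00602 and 0.00298), each without overlap between the phases. These neighboring hydroxysteroid dehydrogenase genes are related in sequence to differing degrees and their reads may be split between them, so that their values are uncertain and may not be independent. The calls of AKR1C1 and AKR1C2 were lost without M-phase replicate 3 (0.60 and 0.72, adjusted p = 0.112 and 0.0668) and with equal totals (0.45 and 0.59), and AKR1B10 had a change of -0.04 ± 0.21 (adjusted p = 0.91).

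A CpG-poor promoter peak was present at 2 of 18 blood and immune, 2 of 9 epithelial and 0 of 8 endothelial marker genes. Among astroglial and glioma markers it was 4 of 18. CD68, a lysosomal protein of macrophages that other cells make too, rose from 66.6, 84.4 and 83.0 to 145.8, 161.5 and 181.9, without overlap, by 0.99 ± 0.21 (adjusted p = 7.66e-05). The promoter peaks of all 18 blood and immune markers held 163 to 235.1 scaled counts in a G1 library and 232.7 to 299.3 in an M-phase library, a sum that includes CD68. Of the 2 epithelial members, CLDN4 was called higher (0.79 ± 0.26, adjusted p = 0.0152) and EPCAM was not (0.24 ± 0.22, adjusted p = 0.454). CLDN4 lost its call without G1 replicate 1 (0.71, adjusted p = 0.0555), M-phase replicate 1 (0.72, adjusted p = 0.0834) or M-phase replicate 3 (0.63, adjusted p = 0.124), and with equal totals (0.50). Of the 4 astroglial members, CD44 rose, while EGFR (0.09 ± 0.21, adjusted p = 0.803), SLC1A2 (-0.11 ± 0.28, adjusted p = 0.825) and GJA1 (-0.34 ± 0.29, adjusted p = 0.419) did not pass the test. None of the 17 mitosis genes on the list, such as CCNB1 and PLK1, had a CpG-poor promoter peak. They had 19 CpG-rich promoter peaks, of which 14 rose and 1 fell. Among all tested CpG-rich promoter peaks 52.8% rose and 3.73% fell, and the list was not tested against these shares.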

How the data were processed

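According to the study's methods, the authors trimmed adapters with cutadapt, mapped reads to hg19 with Bowtie through QuasR (up to 3 locations, 1 kept), discarded mitochondrial reads using SAMtools and used MACS2 to call broad peaks over the merged replicates. Tool versions and any shift of read ends are not given in the sources used here. The deposited signal values are reads per peak, scaled by the authors to their smallest library and rounded to 0.1. The deposited table also holds the authors' log2 fold changes with an SD, which were not used. Chromatin fraction and input samples were not analysed here.

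Peak sequences were read from GRCh37 with pysam 0.24.0. limma 3.58.1 (R 4.3.3), with its trend option for the mean-variance relation, was run on log2(scaled count + 8) of the 6 libraries without covariates. Peaks needed a value equal to 10 reads in a library of median size in at least 3 libraries and a total of at least 15. Exact permutation tests were two-sided (scipy 1.17.1). Members, gene lists, motifs and tests were chosen with earlier results of these data known. Named peaks were the 8 largest rises and falls (adjusted p under 0.05, no overlap, mean of 20 scaled counts or more), the 6 highest, and up to 4 per gene list, taken by height; not every named peak is reported here. Alternatives were other scalings, filters, pseudocounts and definitions of a member, a replicate block and each library left out. Per-sample columns left out numbered 0.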

Additional observations from a re-analysis of the deposited data

How the results depend on the processing

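The difference between CpG-poor and CpG-rich promoters (-0.70) kept its sign in all alternatives run, from -0.75 with a pseudocount of 1 to -0.15 with the loess normalization, and lay between -0.74 and -0.63 when each library was left out. The difference within genes (-0.59, from the medians per library) lay between -0.62 and -0.11 over the scalings and the pseudocount of 1. It lay between -0.61 and -0.57 when each library was left out. Restricting genes to their canonical TSS allowed no within-gene comparison, since a gene has a single one.

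The counts of 195 members that rose and 237 that fell became 105 and 466 with equal totals, 67 and 76 for canonical starts only, and 122 rose with a CpG ratio limit of 0.3. Canonical starts and the stricter limit leave fewer peaks. Equal totals lower every M-phase library relative to every G1 library, because the M-phase totals in peaks were larger. Leaving out each library gave 136 to 224 rises and 191 to 243 falls. With the requirement of at least 10 in every library, 52.5% of the called members were higher, and without G1 replicate 3, 54.0%. Chosen after seeing the data were a mean scaled count of at least 50, where 107 fell, the ratio of the 300 bases at the TSS, and restricting the differences to tested peaks. Replicate numbers did not pair the libraries: the correlations of deviations from the phase means between same-numbered libraries were 0.00594, -0.0101 and 0.0284. With a replicate block in the fit 202 rose and 258 fell, and the difference of -0.70 had a paired exact permutation p of 0.25, the smallest that 3 pairs allow.

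Of 67 named members tested, 37 were called and 23 of them kept the call in every alternative. The loess normalization reversed CXXC5 (-0.16), BTBD19 (-0.42), SPACA6 (-0.44) and S100A2 (-0.20). Count models planned for whole reads were not run, because only 85.3% and 84.9% of low values in M-phase replicates 1 and 2 lay on whole steps after the rounding. Low members are limited by depth: of 212 with a mean scaled count under 10, 37 could be tested.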

Other observations

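Gene families that the lists above did not cover were spread over both directions. Of all tested members 14.1% rose and 17.1% fell, and of all tested CpG-rich promoter peaks 52.8% and 3.73%. The families were not tested against these shares. Solute carriers, the transporters of small molecules across membranes, had 38 CpG-poor promoter peaks, of which 34 were tested, 7 rose and 3 fell, with a median change of 0.11, while 104 of their 214 CpG-rich promoter peaks rose and 7 fell. Olfactory receptor genes, which are used by sensory neurons, had 18 CpG-poor promoter peaks with a median mean scaled count of 16.6. Of these, 14 were tested by limma and 0 were called in either direction, with 1 lower at an unadjusted p under 0.05, and their median change was 0.08. Zinc finger genes of the ZNF series had 13 such peaks, of which 2 rose and 2 fell, beside 396 CpG-rich promoter peaks of which 195 rose and 8 fell. Genes of transmembrane proteins named TMEM had 15, of which 1 rose and 3 fell, and interleukins and their receptors had 11, of which 2 rose and 1 fell. Serpin genes had 4, of which 1 rose, and cytochrome P450 genes had 4, of which 1 rose and 1 fell.

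The members with a CpG-rich stretch at the TSS itself were few. Among the 25 with a ratio of at least 0.6 in the 300 bases at the TSS, 8 rose and 3 fell with a median change of 0.23. Among the 1362 with a ratio under 0.4 there, 155 rose and 218 fell with a median change of -0.06. These groups also differed in height, with median mean scaled counts of 70.5 and 34.5, and the part of height in this contrast was not tested.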
